A study of Homo sapiens with 6 samples.

Results

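Histone genes were followed in the acute myeloid leukaemia cell line OCI-AML2 after knockdown of TAZ, which encodes tafazzin, a mitochondrial enzyme that remodels cardiolipin. Every listed gene whose symbol starts with HIST1H, HIST2H, HIST3H, HIST4H, H1F, H2AF or H3F was taken. The prefixes matched 34 genes; the antisense RNA H1FX-AS1 and the pseudogene HIST2H2BC were set apart, which left 32 of the 13002 genes in the deposited tables. Of these, 24 are clustered genes (3 of H1, 5 of H2A, 9 of H2B, 4 of H3 and 3 of H4) and 8 are variants that lie outside the clusters (H1FX, H2AFJ, H2AFV, H2AFX, H2AFY, H2AFZ, H3F3A and H3F3B). The symbols are those of the tables, and the current names differ: HIST1H2BK is now H2BC12, for example, and H2AFX is now H2AX. No symbol starting with HIST3H or HIST4H was among the listed genes.

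RNA was sequenced from 3 groups of 2 libraries, A and B: cells with a scrambled control hairpin, with TAZ shRNA1 and with TAZ shRNA2. All 3 groups received lentivirus and 3 days of puromycin (2.0 µg/mL), so the controls carry a hairpin and the selection as well. The labels do not say whether A and B came from separate cultures, and p-values then cover only how far these libraries spread, which can be a technical matter. Each library held between 18820256 and 20980539 reads in listed genes. TAZ measured 11.3 and 11.9 RPKM (reads scaled by gene length and library depth) in the controls, 4.02 and 4.10 under shRNA1 and 1.47 and 2.13 under shRNA2. Of 17 myeloid markers 16 were listed, although CD34 was not, and 0 of 6 erythroid and 0 of 5 epithelial markers were listed. Also listed were 4 of 5 B cell, 2 of 6 T cell and 1 of 4 stromal markers. Their summed levels ran from 1.31 to 5.00, from 9.22 to 21.0 and from 0.288 to 0.984 RPKM. The summed myeloid level ran from 1764 to 7188 RPKM over the libraries.

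Histones package DNA into nucleosomes, each with a core of H2A, H2B, H3 and H4, to which a linker histone, H1, can bind. Clustered histone genes are transcribed mainly in S phase, when new chromatin is built, and most of their mRNAs end in a stem-loop bound by SLBP rather than in a poly(A) tail. Variant genes are mostly transcribed throughout the cell cycle and give polyadenylated mRNAs, and their proteins mark particular chromatin, such as H2A.X at broken DNA ends, H2A.Z at promoters, macroH2A in repressed chromatin and H3.3 at active genes. H2AFX makes both kinds of mRNA. Some clustered genes also give polyadenylated mRNAs, in particular in differentiating cells. The labels name a directional library kit and do not say how mRNA was enriched, so the share of stem-loop mRNAs that could enter a library is unknown.

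The stem-loop is shown because it separates these mRNA forms. A 16-base stem-loop (stem of 6 bases, loop of 4) was found in a GENCODE release 29 transcript of 14 of the 32 genes, H2AFX being the only variant among them. For several of the other clustered genes GENCODE holds only the coding part, so a missing match says nothing. The loop is in capitals, and these are the stem-loops of genes that passed a test below.
H2AFX: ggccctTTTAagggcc
HIST1H2AC: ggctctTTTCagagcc
HIST1H2BC: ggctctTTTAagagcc
HIST1H3H: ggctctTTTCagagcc
HIST1H4H: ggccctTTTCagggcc
The deposited values give no gene length, so each length here was inferred as one that makes the reads behind the RPKM whole. In H2AFX, a GENCODE transcript ran on for 1044 bases after the stem-loop, and the inferred length, 1593 bases, would cover such a long form. For HIST1H2AC, a transcript ran on for 1128 bases, but the inferred length was 546 bases. For HIST1H4H, 1655 bases followed in the annotation against an inferred length of 374 bases. For HIST1H3H these were 769 and 473 bases, and for HIST1H2BC 116 and 438 bases. If the inferred lengths are right, reads from such extensions were not counted for HIST1H2AC, HIST1H4H, HIST1H3H and HIST1H2BC.

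Promoters are shown for 3 H2B genes and H2AFX, because H2B promoters are the classical case of an octamer element, the site read by OCT1 (POU2F1). The octamer (ATTTGCAT), the CCAAT box (CCAAT) and the TATA box (TATAAA) were searched on both strands of RefSeq promoters of GRCh38.p14, from 250 bases before to 50 after the start. The 250 bases before the start follow, 5′ to 3′ on the gene's strand, with matches to these 3 motifs in capitals, where adjoining or overlapping matches run together. HIST1H2BK (minus strand, chr6:27146856-27147105) and HIST1H2BC (minus strand, chr6:26123927-26124176) rose with both hairpins, HIST1H2BL (minus strand, chr6:27807930-27808179) did not pass the test, and H2AFX lies on the minus strand at chr11:119095466-119095715.
HIST1H2BK: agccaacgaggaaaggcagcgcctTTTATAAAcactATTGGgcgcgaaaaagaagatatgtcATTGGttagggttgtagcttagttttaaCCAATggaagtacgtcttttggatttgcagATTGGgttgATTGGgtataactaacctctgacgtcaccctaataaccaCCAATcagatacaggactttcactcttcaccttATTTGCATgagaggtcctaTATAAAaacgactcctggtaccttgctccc
HIST1H2BC: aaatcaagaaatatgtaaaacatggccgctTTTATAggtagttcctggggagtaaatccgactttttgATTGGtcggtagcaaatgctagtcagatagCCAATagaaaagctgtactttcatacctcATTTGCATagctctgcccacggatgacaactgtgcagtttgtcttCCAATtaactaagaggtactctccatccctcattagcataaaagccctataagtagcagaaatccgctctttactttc
HIST1H2BL: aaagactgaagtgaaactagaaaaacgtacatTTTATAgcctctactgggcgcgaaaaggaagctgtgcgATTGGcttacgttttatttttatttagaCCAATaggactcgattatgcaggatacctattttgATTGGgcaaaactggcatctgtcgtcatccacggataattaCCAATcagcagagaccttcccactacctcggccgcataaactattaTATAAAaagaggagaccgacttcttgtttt
H2AFX: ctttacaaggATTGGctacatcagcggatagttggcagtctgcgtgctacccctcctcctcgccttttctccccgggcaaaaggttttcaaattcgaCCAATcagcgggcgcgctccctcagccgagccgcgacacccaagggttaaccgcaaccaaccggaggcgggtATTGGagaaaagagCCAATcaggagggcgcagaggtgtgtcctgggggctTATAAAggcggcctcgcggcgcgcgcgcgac
An octamer match lay in the promoters of 6 of 9 H2B genes and 4 of 5 H2A genes, 1 of 5 H3 or H4 genes, 0 of 3 H1 genes and 1 of 8 variants (H3F3B), against 2.19% of 27305 genes with a RefSeq promoter. CCAAT was found in 21 of 22 clustered genes against 39.7% of genes, and TATAAA in 16 of 22 against 14% of genes. HIST1H3J and HIST1H4C had no promoter entry. Some H2A and H2B genes start under 250 bases apart in opposite directions, so these counts are not of separate sites. The octamers of HIST1H2AC, HIST1H2AG and HIST2H2AC are the same bases as those counted for HIST1H2BC, HIST1H2BJ and HIST2H2BE. The only TATAAA match of HIST1H2BC, 220 bases before its start, also lies 31 bases before the start of HIST1H2AC.

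Variants carried almost all histone reads in these libraries. Over the 8 variants, summed reads ran from 52971 to 61050 per library, whereas the 24 clustered genes together held 703 to 2169. By level per length, H2AFZ (H2A.Z.1) was highest at a mean of 1190 RPKM over the 6 libraries, followed by H2AFY at 306, H3F3B at 188, H1FX at 136, H2AFV at 84.3 and H2AFX at 46.8. HIST1H2BK, at 54.1 RPKM, was the only clustered gene with a mean above 10 RPKM. HIST1H1C (9.31) and HIST1H4C (8.75) came next, and the other 21 clustered genes had means from 0.496 to 2.90 RPKM. In all, 9 clustered genes and the variant H3F3A had means under 1 RPKM.

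**Figure D1:**
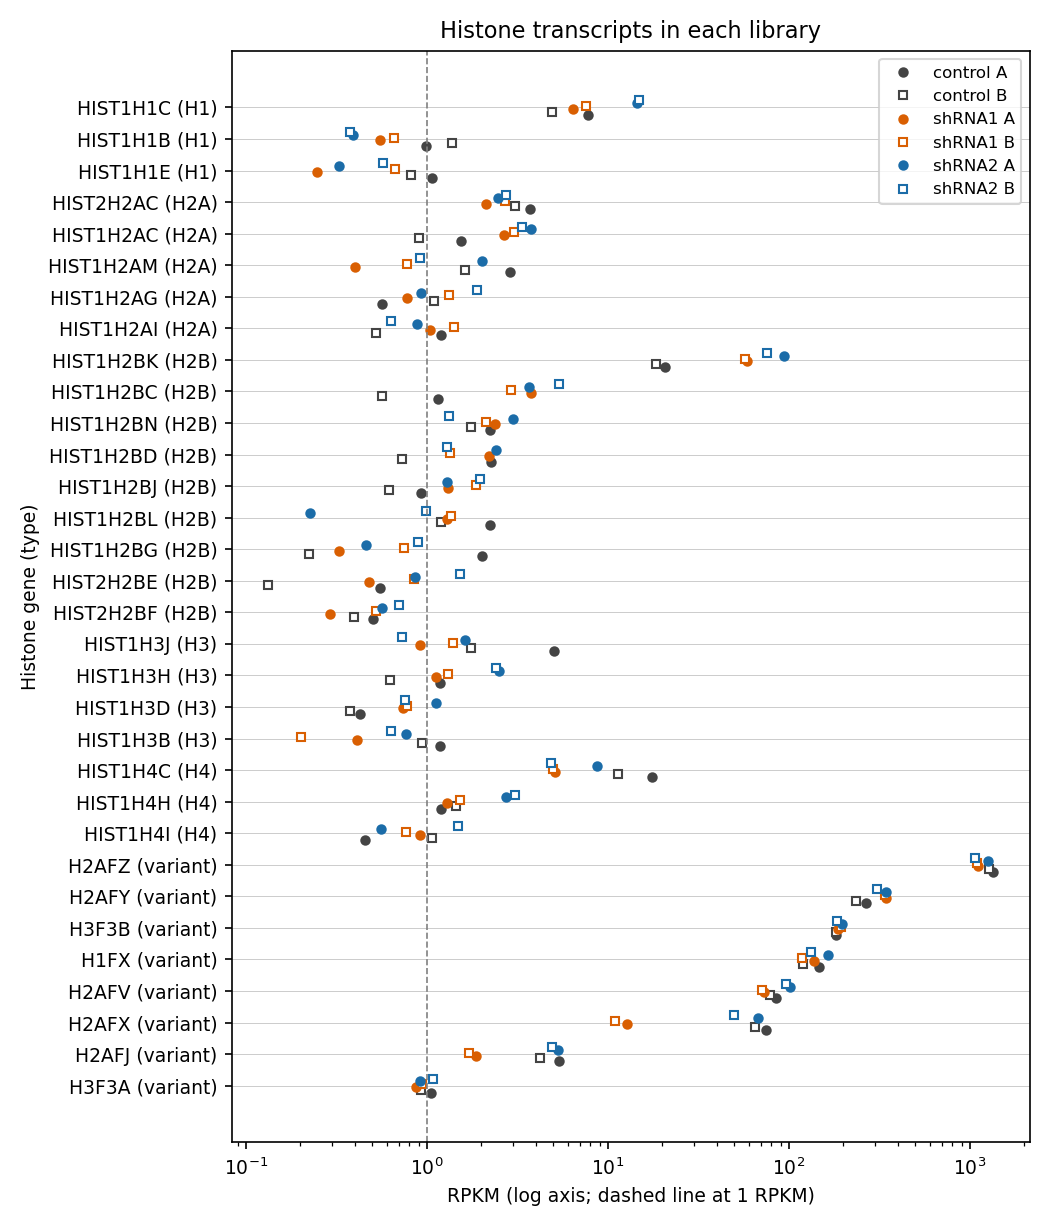
Level of each of the 32 histone genes in each of the 6 libraries, in RPKM on a log axis (1 symbol per library; filled circles for A, open squares for B; dashed line at 1 RPKM). Variants other than H3F3A and H2AFJ lie far to the right of most clustered genes, and the 2 shRNA1 libraries of H2AFX lie apart from its other 4.

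H2AFX, which encodes the H2A.X that is phosphorylated around broken DNA, had the largest change of any histone gene. It measured 74.7 and 64.9 RPKM in the controls, 12.7 and 10.98 under shRNA1 and 67.9 and 49.7 under shRNA2. Both shRNA1 libraries were below the other 4, while the shRNA2 and control libraries overlapped. On the log2(RPKM + 0.5) scale used for every test, it fell by 2.51 (SE 0.13) with shRNA1, with an adjusted p of 0.00101 by limma. This was the 6th lowest difference among 10613 genes tested. With shRNA2 the difference was -0.26 (SE 0.19, adjusted p 0.369), and tested directly, shRNA2 was above shRNA1 by 2.25 (SE 0.17, adjusted p 0.000905). For TAZ itself the order was the reverse, with shRNA2 below shRNA1 (log2 difference -1.001, SE 0.16, adjusted p 0.00801). Behind H2AFX lay 2130 and 2096 control reads, 416 and 369 shRNA1 reads and 2102 and 1592 shRNA2 reads. Only 3.91% of its 31-base stretches also occurred in transcripts of other genes.

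H2AFJ, a replication-independent H2A close to the canonical protein, was also low with shRNA1. It measured 5.40 and 4.20 RPKM in the controls, 1.86 and 1.71 under shRNA1 and 5.33 and 4.93 under shRNA2. It fell by 1.20 with shRNA1 (SE 0.17, adjusted p 0.00668) and differed by 0.10 with shRNA2 (SE 0.17, adjusted p 0.728). The direct difference, shRNA2 above shRNA1, was 1.30 (SE 0.16, adjusted p 0.0026). For both genes, each of these calls held when any single library was left out.

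Neither H2A.Z gene passed a comparison with the control. H2AFV, which encodes H2A.Z.2, measured 84.8 and 78.8 RPKM in the controls, 72.7 and 70.9 under shRNA1 and 102.0 and 96.6 under shRNA2. Its groups did not overlap, but neither comparison with the control passed the test (-0.19, SE 0.11, adjusted p 0.272 with shRNA1 and 0.28, SE 0.15, adjusted p 0.233 with shRNA2). Between hairpins it was higher with shRNA2 by 0.46 (SE 0.12, adjusted p 0.0428), a call that was lost without any 1 of the 4 knockdown libraries (highest adjusted p 0.286). H2AFZ measured 1349 and 1271 RPKM in the controls, 1115 and 1094 under shRNA1 and 1251 and 1060 under shRNA2. Both groups lay below the control, by -0.25 (SE 0.16, adjusted p 0.308) and -0.19 (SE 0.24, adjusted p 0.629).

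H2AFY, which encodes macroH2A1, measured 267 and 234 RPKM in the controls, 343 and 340 under shRNA1 and 345 and 307 under shRNA2. All 4 knockdown libraries were above both controls, with differences of 0.45 (SE 0.13, adjusted p 0.0565) and 0.38 (SE 0.18, adjusted p 0.191). The authors' deposited table called it in both comparisons, with log2 fold changes of 0.45 and 0.39 and adjusted p-values of 0.00283 and 0.0098. By limma, H2AFY passed the threshold under 6 of 12 alternative settings with shRNA1 (adjusted p 0.000534 to 0.404) and 3 of 12 with shRNA2 (0.00679 to 0.575).

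The H3.3 gene H3F3B measured 181.4 and 182.7 RPKM in the controls, 187 and 194 under shRNA1 and 197.5 and 183.4 under shRNA2. All 4 knockdown libraries were above both controls, by differences of 0.06 with each hairpin (SE 0.12 and 0.16, adjusted p 0.726 and 0.807). H3F3A, which encodes the same H3.3 protein, was listed at 0.868 to 1.08 RPKM, from 19 to 23 reads per library, and was not tested. Of its 31-base stretches 36% were shared with transcripts of other genes, so its low level is uncertain. H1FX, which encodes the linker histone H1.10, measured 147 and 119 RPKM in the controls, 137 and 117 under shRNA1 and 164 and 133 under shRNA2. The groups of H1FX overlapped, and its differences were -0.06 (SE 0.15, adjusted p 0.791) and 0.16 (SE 0.19, adjusted p 0.591).

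Among 7 tested variants, then, 2 fell and 0 rose with shRNA1, and 0 fell and 0 rose with shRNA2 by limma. At an unadjusted p under 0.05, 1 was higher and 2 were lower with shRNA1, and 0 in either direction with shRNA2, beside 18.8% and 17.3% of all genes with shRNA1 and 16.7% and 16.1% with shRNA2. At the adjusted threshold, of all genes tested, 9.99% rose and 8.58% fell with shRNA1, and 8.12% rose and 7.61% fell with shRNA2. The variants' median log2 difference was -0.19 with shRNA1 and 0.10 with shRNA2, beside medians of 0.00 for all genes in both comparisons. The shRNA1 median was 0.01 under quantile normalization and 0.03 with a length trend removed, and the shRNA2 median was 0.26 with control A left out and -0.02 with control B left out. The comparisons share the control libraries.

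Among clustered genes, HIST1H2BK, an H2B gene of the large cluster on chromosome 6, was the most abundant and rose with both hairpins. It measured 20.8 and 18.3 RPKM in the controls (312 reads in each library), 58.5 and 56.9 under shRNA1 (1013 and 1008 reads) and 94.4 and 75.5 under shRNA2 (1539 and 1273 reads). No groups overlapped. It rose by 1.54 with shRNA1 (SE 0.12, adjusted p 0.00157) and by 2.08 with shRNA2 (SE 0.16, adjusted p 0.00245), which were the 51st and 23rd highest differences among all genes tested. Its level was also higher with shRNA2 than with shRNA1, by 0.54 (SE 0.14, adjusted p 0.0453), but not once either shRNA1 library or shRNA2 library A was left out (highest adjusted p 0.261). The coding part of HIST1H2BK shares 86.3% of its 31-base stretches with other genes. GENCODE gives it no more than that part, 381 bases, while the length inferred from the RPKM was 839 bases. How reads that fit several genes were treated is not given in the sources used here.

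HIST1H2BC and HIST1H2AC form a divergent pair of an H2B and an H2A gene whose starts lie 246 bases apart, so the HIST1H2BC promoter printed above spans both. HIST1H2BC measured 1.15 and 0.563 RPKM in the controls, 3.76 and 2.92 under shRNA1 and 3.64 and 5.34 under shRNA2. These values came from 9 and 5, 34 and 27, and 31 and 47 reads. It rose by 1.53 (SE 0.24, adjusted p 0.00904) and 1.89 (SE 0.27, adjusted p 0.00661), differences slightly below those of HIST1H2BK on the log2(RPKM + 0.5) scale. By limma-voom on whole reads they were 1.97 and 2.39 for HIST1H2BC against 1.56 and 2.12 for HIST1H2BK, so which gene changed more depends on the scale. The control mean of HIST1H2BC was 0.856 RPKM, so it reached the filter of 1 RPKM only through the knockdown libraries. Without the filter its adjusted p-values by limma were 0.013 and 0.0104. Its transcript shares 22% of 31-base stretches with other genes.
HIST1H2AC measured 1.54 and 0.903 RPKM in the controls, 2.66 and 3.04 under shRNA1 and 3.77 and 3.37 under shRNA2. It rose by 0.99 (SE 0.21, adjusted p 0.023) with shRNA1 and 1.27 (SE 0.22, adjusted p 0.0132) with shRNA2. For both genes all 4 knockdown libraries were above both controls. The shRNA1 call of HIST1H2AC was lost without shRNA1 library B (adjusted p 0.119) and in a test on whole reads (0.0613).

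The other 3 divergent pairs with both genes listed did not behave alike, and none of their genes passed by limma. HIST1H2BJ, opposite HIST1H2AG, was above the control in all 4 knockdown libraries, with differences of 0.71 (SE 0.21, adjusted p 0.058) and 0.73 (SE 0.25, adjusted p 0.0859). HIST1H2AG differed by 0.24 and 0.51, the former without the filter on low levels. HIST1H2BL, opposite HIST1H2AI, differed by -0.24 and -1.05 (adjusted p 0.501 and 0.0993). HIST2H2BE, opposite HIST2H2AC, differed by 0.50 and 1.02 without the filter (adjusted p 0.236 and 0.0632), and HIST2H2AC by -0.42 and -0.32. In the authors' deposited table HIST2H2BE was called higher with shRNA2 (log2 fold change 1.78, adjusted p 0.00307). It was not called there with shRNA1 (0.94, adjusted p 0.163), and the other genes of these pairs were called with neither hairpin.

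The H2B genes can be set beside their octamers. Of the 6 with a match, HIST1H2BK and HIST1H2BC rose with both hairpins. By limma, 4 did not pass (HIST1H2BG, HIST1H2BJ, HIST2H2BE and HIST2H2BF), with differences between -0.41 (HIST1H2BG with shRNA1) and 1.02. Values of HIST1H2BG, HIST2H2BE and HIST2H2BF come from the fit without the filter on low levels, and those of the other H2B genes from the fit with it. The authors' deposited table called HIST2H2BE with shRNA2, as given above. The 3 without a match, HIST1H2BD, HIST1H2BL and HIST1H2BN, had differences between -1.05 and 0.30, and none passed. The octamer of HIST1H2BK began 49 bases before the start, and that of HIST1H2BC 123 bases before it. HIST1H2AM, whose promoter also held an octamer, fell with shRNA1. No test was made of this split.

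**Figure D2:**
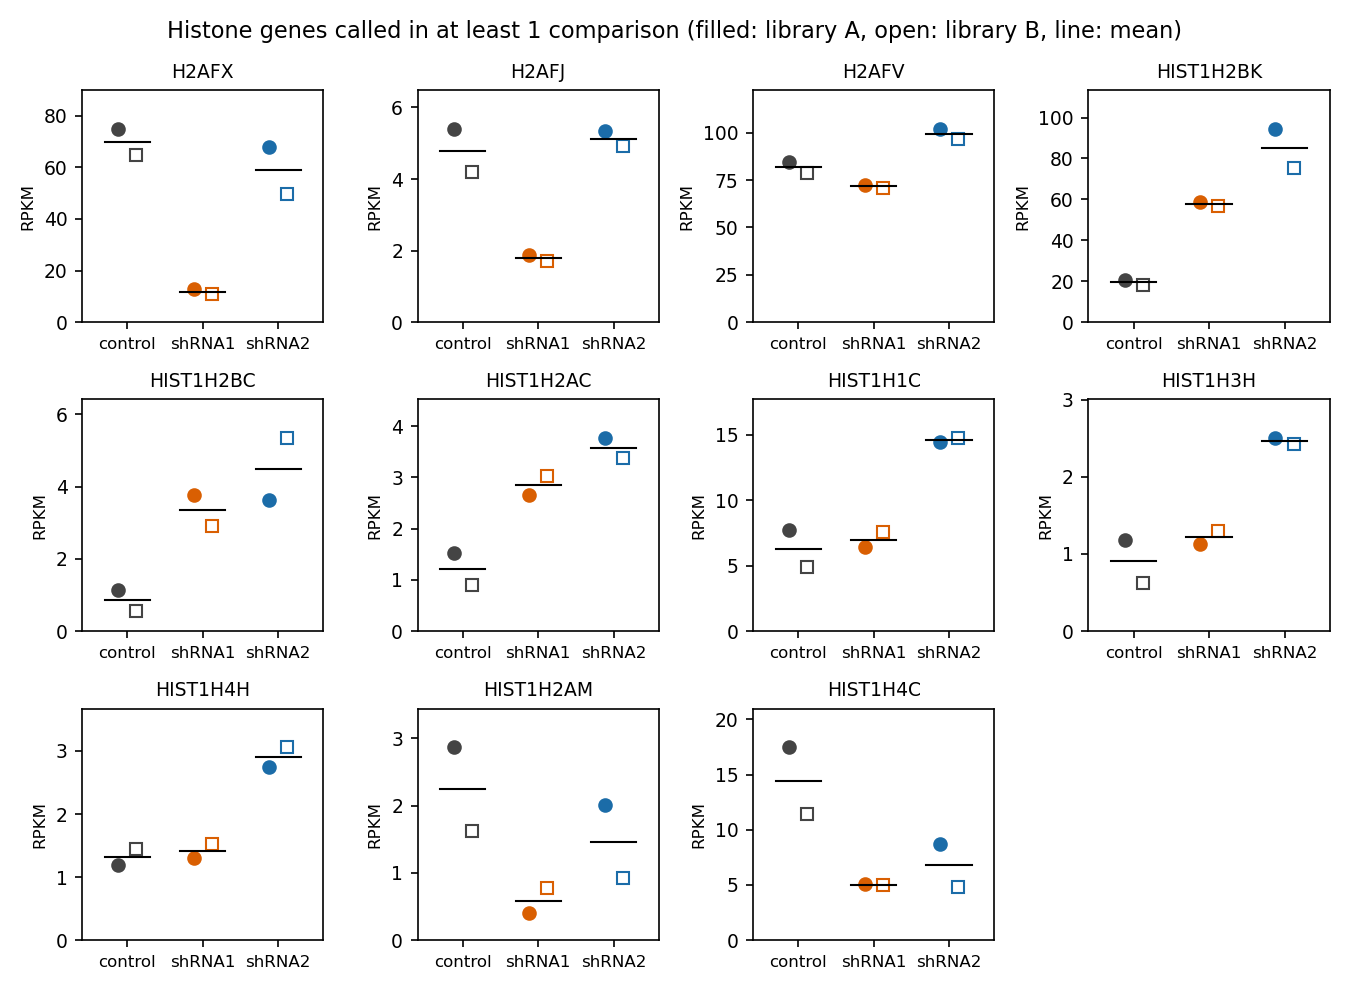
RPKM per library of the 11 histone genes that passed the test in at least 1 of the 3 comparisons (axes start at 0; filled circles for library A, open squares for B, lines for group means). H2AFX and H2AFJ are low with shRNA1 alone, HIST1H2BK, HIST1H2BC and HIST1H2AC are high with both hairpins, and HIST1H1C, HIST1H3H and HIST1H4H are high with shRNA2.

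Genes of 3 other types rose with shRNA2. HIST1H1C, which encodes linker histone H1.2, measured 7.71 and 4.92 RPKM in the controls, 6.43 and 7.57 under shRNA1 and 14.5 and 14.8 under shRNA2. Both shRNA2 libraries were above the other 4. It rose by 1.18 (SE 0.21, adjusted p 0.0124) with shRNA2 and differed by 0.16 (SE 0.21, adjusted p 0.605) with shRNA1. The direct difference was 1.02 (SE 0.19, adjusted p 0.0148).
HIST1H4H, an H4 gene, measured 1.20 and 1.45 RPKM in the controls, 1.30 and 1.52 under shRNA1 and 2.75 and 3.06 under shRNA2, from 8 to 23 reads. It rose by 0.90 (SE 0.19, adjusted p 0.0214) with shRNA2, and was above shRNA1 by 0.84 (SE 0.17, adjusted p 0.0177). With shRNA1 it differed from the control by 0.07 (SE 0.17, adjusted p 0.803). HIST1H3H, an H3 gene, measured 1.18 and 0.626 RPKM in the controls, 1.13 and 1.30 under shRNA1 and 2.501 and 2.42 under shRNA2, from 6 to 23 reads. It rose by 1.11 (SE 0.24, adjusted p 0.0239) with shRNA2 and differed by 0.32 (SE 0.23, adjusted p 0.349) with shRNA1, and the difference between hairpins did not pass (0.79, SE 0.22, adjusted p 0.0513). In a test on whole reads the shRNA2 calls of HIST1H4H and HIST1H3H were lost (adjusted p 0.124 and 0.0702), and that of HIST1H4H was also lost without shRNA2 library B (0.0806). The direct differences of HIST1H1C and HIST1H4H were lost without any 1 of the 4 knockdown libraries (highest adjusted p 0.128 and 0.159), and that of HIST1H4H also on whole reads (0.123) and with a length trend removed (0.0824). The direct difference of HIST1H3H passed under 6 of 12 alternatives. The control mean of HIST1H3H was 0.904 RPKM, so it too reached the filter only through the knockdown libraries. Without the filter its adjusted p with shRNA2 was 0.0266 by limma.

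Clustered genes also fell. HIST1H4C, the most abundant H4 gene here, measured 17.5 and 11.4 RPKM in the controls, 5.10 and 4.98 under shRNA1 and 8.71 and 4.85 under shRNA2. All 4 knockdown libraries were below both controls. It fell by 1.40 (SE 0.20, adjusted p 0.00693) with shRNA1 and by 1.06 (SE 0.29, adjusted p 0.0451) with shRNA2. The shRNA2 call was lost under 4 of 12 alternatives: without shRNA2 library B (adjusted p 0.138), on whole reads (0.0709), without the filter on low levels (0.0628) and under quantile normalization (0.0517). HIST1H4C shared 0% of its 31-base stretches with other genes.
HIST1H2AM, an H2A gene, measured 2.87 and 1.62 RPKM in the controls, 0.398 and 0.778 under shRNA1 and 2.01 and 0.920 under shRNA2. It fell by 1.32 with shRNA1 (SE 0.27, adjusted p 0.0207), from 25 and 16 reads to 4 and 8, and differed by -0.50 (SE 0.33, adjusted p 0.319) with shRNA2. The shRNA1 mean of HIST1H2AM was 0.588 RPKM, so it reached the filter through the control. Without the filter its adjusted p with shRNA1 was 0.0249 by limma. Its coding part shares 87.1% of 31-base stretches with other genes, and without shRNA1 library A the adjusted p was 0.0516.

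The most abundant H3 and H2A genes did not pass by limma. The authors' deposited table called the H3 gene, HIST1H3J, lower with both hairpins, and the H2A gene, HIST2H2AC, with neither. For HIST1H3J its log2 fold changes were -1.40 and -1.47 (adjusted p 0.0274 and 0.0169). HIST1H3J measured 5.03 and 1.75 RPKM in the controls, 0.913 and 1.39 under shRNA1 and 1.61 and 0.729 under shRNA2. The knockdown libraries were all below both controls, yet the control libraries themselves lay far apart, and differences of -1.11 (SE 0.39) and -1.13 (SE 0.43) had adjusted p-values of 0.085 and 0.111. HIST2H2AC measured 3.71 and 3.05 RPKM in the controls, 2.11 and 2.71 under shRNA1 and 2.47 and 2.73 under shRNA2, with adjusted p-values of 0.137 and 0.253. The control libraries differed in this way across the class: of 15 clustered genes averaging 1 RPKM or more across the 6 libraries, 13 were higher in control A than in control B, with a median B minus A of -0.58, against 0.01 over all genes. Without control A, the median difference of the tested clustered genes was 0.37 with shRNA1 and 0.80 with shRNA2, and without control B it was -0.07 and 0.22.

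**Figure D3:**
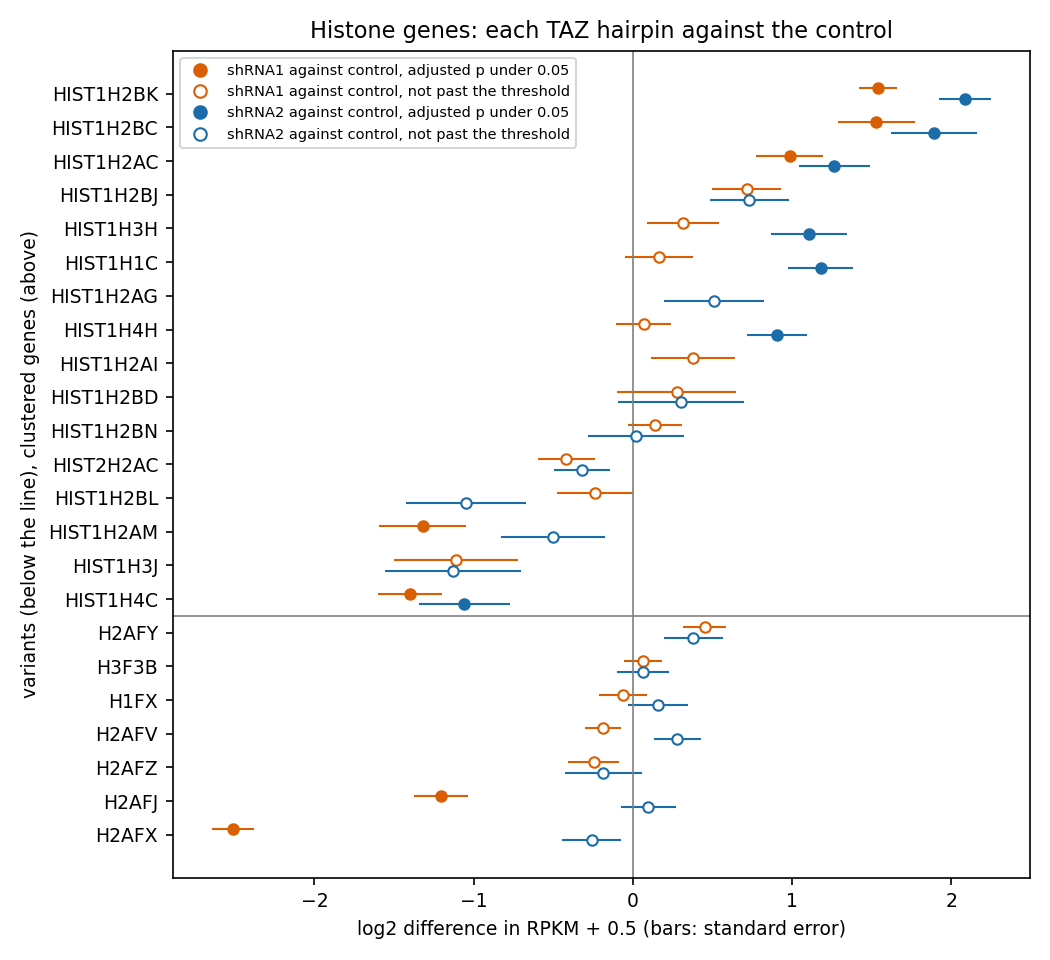
Log2 difference of RPKM + 0.5 from the control, with its standard error, for the tested histone genes (orange for shRNA1, blue for shRNA2; filled where the limma adjusted p is under 0.05; clustered genes above the line, variants below). H2AFX lies lowest at -2.51 with shRNA1 and near 0 with shRNA2, while HIST1H2BK and HIST1H2BC lie highest with both hairpins.

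In total, 15 of the 24 clustered genes could be tested in each comparison. With shRNA1, 3 rose and 2 fell, with a median log2 difference of 0.16. With shRNA2, 6 rose and 1 fell, with a median of 0.51. The shRNA1 median was 0.50 with a length trend removed and 0.02 without shRNA1 library B, and, as given above, its sign turned without control B. The same rates over all genes were the 9.99%, 8.58%, 8.12% and 7.61% given above. Between hairpins, 3 clustered genes and 3 variants were higher with shRNA2 and 0 were lower by limma, beside 4.78% and 6.1% of all genes. At an unadjusted p under 0.05, 5 clustered genes and 3 variants were higher there and 1 and 0 were lower, beside 11.9% and 14.3% of all genes. These counts hold genes that reached the filter of 1 RPKM only through the group where they were high, so they are a description only. HIST1H2BC, HIST1H2BJ and HIST1H3H had control means under 1 RPKM, as did HIST1H2AG (0.825, tested with shRNA2) and HIST1H2AI (0.859, tested with shRNA1). In the other direction, HIST1H2AM with shRNA1 (mean 0.588 against 2.24 in the control) and HIST1H2BL with shRNA2 (0.608 against 1.71) were tested through their control level.

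With no filter, all 24 clustered genes gave 3 that rose and 3 that fell with shRNA1 (median 0.14), beside 8.3% and 6.92% of all 13002 genes. With shRNA2, 6 rose and 1 fell (median 0.25), beside 6.44% and 5.91%. Here HIST1H3B and HIST1H1B appeared among those that fell. HIST1H3B fell by 0.96 with shRNA1 (SE 0.18, adjusted p 0.0194), from 10 and 9 reads to 4 and 2. HIST1H1B, which encodes H1.5, fell by 0.92 with shRNA2 (SE 0.17, adjusted p 0.0217), from 14 and 22 reads to 6 and 6. HIST1H4C did not pass in that fit with shRNA2. The remaining members with means under 1 RPKM (HIST1H1E, HIST1H2AI, HIST1H2BG, HIST1H3D, HIST1H4I, HIST2H2BE, HIST2H2BF and H3F3A) passed in neither comparison with the control by limma.

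By separation of libraries alone, 5 clustered genes had both shRNA1 libraries above both controls and 7 had both below, beside 32.3% and 32% of all genes. For shRNA2, 10 were above and 7 below, beside 30.2% in each direction. Of the variants, 2 were above and 4 below with shRNA1, and 3 above and 1 below with shRNA2. Between hairpins, 9 clustered genes and 3 variants had both shRNA2 libraries above both shRNA1 libraries, and 3 and 0 below, beside 28.1% and 30.3% of all genes.

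The authors' deposited table, which reports a likelihood-ratio test, called 3 clustered genes higher and 4 lower with shRNA1, beside 18.8% and 17.1% of all genes. With shRNA2 that deposited table had 8 higher and 3 lower, beside 19.9% and 18.9%. For variants it had 1 higher and 2 lower with shRNA1, and 1 higher and 0 lower with shRNA2. Its log2 fold change for H2AFX was -2.57 with shRNA1 (adjusted p 2.99e-76) and -0.25 with shRNA2 (0.0917), and for HIST1H2BK 1.56 and 2.12 in the authors' deposited table.

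The summed reads of the clustered genes followed HIST1H2BK. All 24 held 862 and 703 reads in the controls, 1439 and 1506 under shRNA1 and 2169 and 1920 under shRNA2. Without HIST1H2BK the other genes held 550 and 391, 426 and 498, and 630 and 647 reads. The shRNA1 and control libraries then overlapped, and both shRNA2 libraries stayed above both controls. In summed RPKM, which corrects for length and depth, these other genes came to 58.5 and 37.5 in the controls, 36.8 and 40.8 under shRNA1 and 55.7 and 53.2 under shRNA2, and on that scale the shRNA2 libraries lay between the controls. In bulk RNA, a shift in the share of cells in S phase cannot be told apart from a shift in histone mRNA per cell.

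**Figure D4:**
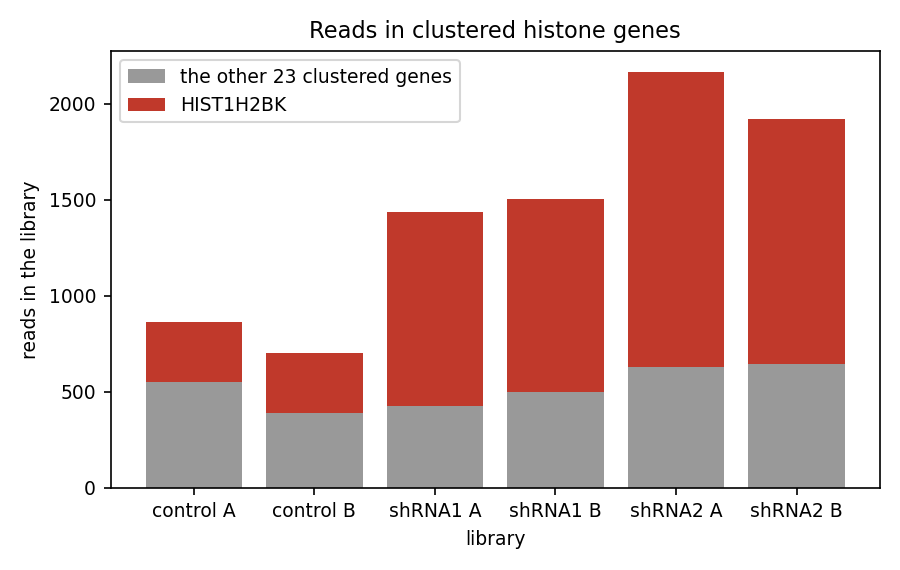
Reads in the 24 clustered histone genes in each library (bars start at 0; red for HIST1H2BK, grey for the other 23 genes). HIST1H2BK grows from 312 reads in each control library to 1539 in shRNA2 library A, while the grey part stays between 391 and 647.

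Genes that make or remove histone mRNA can be read against the same 9.99% and 8.58% of all genes that rose and fell with shRNA1, and 8.12% and 7.61% with shRNA2. Of 22 genes for transcription and 3-prime processing of histone mRNA, 3 rose and 0 fell with shRNA1 (median 0.10), and 2 rose and 0 fell with shRNA2 (median -0.01). CCNE2, cyclin E2, which drives CDK2 at S phase entry, measured 8.10 and 9.06 RPKM in the controls, 20.7 and 23.3 under shRNA1 and 16.4 and 14.7 under shRNA2, and rose by 1.31 (SE 0.13, adjusted p 0.00238) and 0.82 (SE 0.15, adjusted p 0.0133). CPSF2, a subunit of the cleavage complex, rose by 0.57 and 0.60 (adjusted p 0.0302 and 0.0406). MIF4GD, an SLBP partner in translation, rose by 0.86 with shRNA1 (adjusted p 0.00581). SLBP itself, named here after its values were seen, stood between 69.7 and 89.4 RPKM and did not pass (0.06 and -0.12, adjusted p 0.707 and 0.645). Of 9 genes of histone mRNA decay, 1 rose with shRNA1 and 2 with shRNA2, and 0 fell. These were XRN1, a 5-prime exonuclease, with both (0.59 and 0.70, adjusted p 0.0379 and 0.0246), and ZCCHC6, a uridylyl transferase, with shRNA2 (0.69, adjusted p 0.0277).

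Of 31 chaperone and exchange genes, 2 rose and 2 fell with shRNA1, and 3 rose and 2 fell with shRNA2 (medians -0.01 and -0.12). Among all genes tested, 9.99% rose and 8.58% fell with shRNA1, and 8.12% rose and 7.61% fell with shRNA2. SRCAP, the ATPase that deposits H2A.Z, rose by 0.86 and 0.76 (adjusted p 0.00994 and 0.035), and RBBP4, a subunit of the chaperone CAF-1, by 0.67 and 0.52 (0.0144 and 0.0461). MIS18A, which prepares centromeres for CENP-A, fell by 0.63 and 0.63 (0.0297 and 0.0317), and HJURP, the CENP-A chaperone, fell by 0.56 with shRNA1 (0.031).

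The S phase list holds replication factors, whose genes are active when clustered histone genes are. Of 40 genes, 0 rose and 4 fell with shRNA1, and 1 rose and 2 fell with shRNA2, with medians of 0.00 and -0.13, beside the same shares of all genes. CDT1, which licenses replication origins, measured 50.3 and 63.0 RPKM in the controls, 37.0 and 32.3 under shRNA1 and 31.2 and 29.7 under shRNA2. It fell by 0.70 (SE 0.15, adjusted p 0.0215) and 0.88 (SE 0.16, adjusted p 0.0141). RPA3, a subunit of the single-strand DNA binding complex, fell by 0.51 with shRNA1 (adjusted p 0.0375), RFC2, of the clamp loader, fell by 0.40 with shRNA1 (0.0445), and UHRF1, which maintains DNA methylation, fell by 0.50 with shRNA2 (0.0496). A further pair was named after its values were seen. MCM3, a subunit of the replicative helicase, fell by 0.81 with shRNA1 (SE 0.14, adjusted p 0.0105), differed by 0.26 with shRNA2 (adjusted p 0.312) and was higher with shRNA2 in the direct test (1.07, adjusted p 0.00318). RRM2, a subunit of ribonucleotide reductase, rose by 0.74 with shRNA2 (SE 0.16, adjusted p 0.0246).

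Of 16 listed genes linked to H2A.X phosphorylation or its readers, 3 rose and 1 fell with shRNA1, where H2AFX fell (median 0.18). The shares over all genes were 9.99% and 8.58%. With shRNA2, 0 of the 16 rose and 0 fell by limma (median 0.16), beside 8.12% and 7.61% of all genes. At an unadjusted p under 0.05, 2 were higher and 1 lower with shRNA2, beside 16.7% and 16.1% of all genes. MDC1, which binds phosphorylated H2A.X, measured 8.31 and 8.90 RPKM in the controls, 15.2 and 15.9 under shRNA1 and 11.4 and 14.5 under shRNA2. It rose by 0.82 with shRNA1 (SE 0.12, adjusted p 0.00776), with a difference of 0.55 (adjusted p 0.0581) with shRNA2. TP53BP1 rose by 0.62 (adjusted p 0.0229) and BRCA1 by 0.55 (0.0235) with shRNA1, both being recruited to broken DNA. RAD50, of the end-binding complex, fell by 0.45 (0.0404). Of these 4, TP53BP1 differed between the hairpins in the direct test (-0.54 for shRNA2 against shRNA1, adjusted p 0.0297), and MDC1, BRCA1 and RAD50 did not pass it.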

How the data were processed

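RNA of 6 OCI-AML2 libraries was sequenced. Per the submitters' processing notes, the authors' tools were TopHat2 2.0.11, Trim Galore 0.4.0, DESeq 1.18.0, HTSeq 0.6.1p2 and edgeR 3.8.6, on hg19, without roles. RPKM per library was deposited, per the file headers, with a log2 fold change, an average log2 CPM and an adjusted p-value, in 1 table per hairpin. Control columns are headed GFP, while the labels say scramble. The counting's strand setting is not given in the sources used here.

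After dropping 2 repeats and restoring 21 date-like symbols, 13002 genes remained. Whole reads were recovered from RPKM for 100% of genes (within 0.05 reads). The same step inferred a length for each gene. Of 350 genes with 1 GENCODE transcript, 138 had an inferred length exactly equal to that transcript. Each comparison used limma 3.58.1 (R 4.3.3) with a prior variance trend on log2(RPKM + 0.5), keeping genes that averaged 1 RPKM or more in the libraries fitted, two-sided, with Benjamini-Hochberg adjustment over all genes and a threshold of 0.05. The hairpins were compared in a fit of all 6 libraries. Levels are given per library. This scale understates changes of low genes. The fits were also run on simulated data with independent libraries and the same fixed spread for every gene. That setting lacks the shifts between A and B libraries seen here, so it does not cover them.

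Values are printed for members called anywhere, tested variants and the most abundant clustered gene of each type. Up to 4 called genes per list are named, by the larger p of both control comparisons. Members and lists were chosen with earlier results of these data known. Alternatives were another pseudocount, 2 filters, a replicate block, quantile normalization, removal of a length trend, limma-voom on whole reads, 1 fit of all libraries, and leaving out each library. Stretches of 31 bases shared between genes come from GENCODE release 29 and promoters from RefSeq.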

Additional observations from a re-analysis of the deposited data

Results flagged for a closer look

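A direct test of shRNA2 against shRNA1 called 6 of the 22 tested histone genes, all higher with shRNA2. Among all genes tested, 4.78% were called higher and 6.1% lower. The log2 differences were 2.25 for H2AFX, 1.30 for H2AFJ, 1.02 for HIST1H1C, 0.84 for HIST1H4H, 0.54 for HIST1H2BK and 0.46 for H2AFV. For H2AFX and H2AFJ the call held without any 1 of the 6 libraries. The calls of HIST1H1C, HIST1H4H and H2AFV were lost without any 1 of the 4 knockdown libraries, and that of HIST1H2BK without either shRNA1 library or without shRNA2 library A.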

How the results depend on the processing

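Of the histone calls, 5 of 7 with shRNA1, 4 of 7 with shRNA2 and 2 of 6 between hairpins held under every alternative that could test the gene, and 0 changed direction. With 1 library of a group left out, the lone library is assumed to vary like the others. Under such omissions the genes called ran from 461 to 4397 for shRNA1 (1971 in all 4 libraries), from 823 to 2010 for shRNA2 (1676) and from 155 to 1622 for shRNA2 against shRNA1 (1160). The extremes were shRNA1 library B (461), control B (4397), shRNA2 library B (823), control B (2010), shRNA1 library B (155) and control B (1622). Histone genes that rose ran from 2 to 8 and those that fell from 3 to 9 with shRNA1, those that fell from 1 to 5 with shRNA2, and those that rose from 2 to 7 between hairpins. The highest counts came without control A (8 rose) and without control B (9 and 5 fell). At a mean of at least 5 RPKM, 1 rose and 2 fell with shRNA1 and 2 rose with shRNA2, because fewer were tested. With a length trend removed, 7 rose with shRNA1 and 1803 genes were called between hairpins. With shRNA2, 0 fell under quantile normalization and 0 under limma-voom, and 2584 genes were called in the fit of all 6 libraries. With the replicate block, that is with libraries paired by letter, 3780, 4170 and 2396 genes were called in the 3 comparisons, 5 histone genes rose with shRNA1 and 4 fell with shRNA2, and H2AFY passed with both hairpins (adjusted p 0.0186 and 0.00679). Libraries of the same letter deviated together (correlations 0.260, 0.423 and 0.367), but the labels do not say what a letter marks. The cause of these shifts was not tested unless stated. Depth limits clustered genes: most held under 50 reads per library.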

Other observations

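2 genes matched the prefixes without being counted among the histone genes. HIST2H2BC, listed by RefSeq as a pseudogene, measured 2.79 and 1.53 RPKM in the controls, 2.67 and 1.47 under shRNA1 and 2.65 and 2.65 under shRNA2, and did not pass a test. H1FX-AS1, antisense to H1FX, had means under 1 RPKM in each group (control 0.830, shRNA1 0.524, shRNA2 0.357). The authors' deposited table called H1FX-AS1 lower with shRNA2 (log2 fold change -1.20, adjusted p 0.00712) and did not call it with shRNA1 (-0.66, adjusted p 0.14). In GENCODE release 29 the exons of H1FX-AS1 overlap those of H1FX on the other strand.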
